A study of Mus musculus with 8 samples.

Results

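This account covers 9 histone genes, the H2A variant genes H2afz, H2afv, H2afx, H2afj, H2afy and H2afy2 and the linker histone genes H1foo, H1f0 and H1fx. They were found in the deposited table by the Ensembl identifier that carries each symbol, newer names such as H2az1, H2ax and H1f8 counting as the same genes. Of the 9 genes, 8 had a row among the 37620 in the table. No row matched the identifier of H1f0, which was not analysed here. The samples were 8 single mouse oocytes of strain C57BL/6 arrested at the second meiotic metaphase (MII). Of these, 4 were Hira f/f without Cre in the genotype label (WT, numbered 1, 2, 4 and 5), and 4 were Hira f/f with Gdf9-Cre (KO, numbered 1, 3, 5 and 6). All 8 thus share the floxed Hira alleles, and the titles of all 8 carry the tag Gdf9-Cre+, so genotype and description labels set the groups. Gdf9-Cre is a recombinase driven by the promoter of the oocyte gene Gdf9, and Hira encodes a chaperone that deposits histone H3.3 outside DNA replication. The labels give neither the females nor their ages.

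Nucleosomes hold an octamer of core histones, of which H2A can be replaced by variants, and linker histones bind the DNA where it enters and leaves the nucleosome. H2A.Z, made from H2afz and H2afv, marks nucleosomes beside promoters. H2A.X, from H2afx, is phosphorylated around DNA breaks. MacroH2A, from H2afy and H2afy2, carries a large extra domain and is found on the inactive X chromosome. The mouse egg holds an oocyte linker histone, encoded by H1foo, in place of most somatic linker histones. In dividing cells, canonical histone mRNAs are normally tied to DNA replication.

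Since every library comes from 1 cell of an unnamed female, a genotype counts as 1 sample, and no test between genotypes was made. SDs below describe the spread over 4 oocytes of a genotype, which mixes cells, females and library preparations. FPKM values count fragments per kilobase of exon and are scaled to each library's total, so levels are relative within a library, and a difference between oocytes need not be one in RNA molecules per egg. A gene was compared if it reached FPKM 1 in at least 4 of the 8 oocytes. Library totals recovered from the FPKM steps lay between 38032455 and 50208686 reads. Reads outside listed genes took 13.8% to 15.7% of the total in WT and 19.7% to 24.97% in KO. These are upper limits, since the recovered reads in listed genes are lower limits. Hira itself held 42, 0, 96 and 1 reads in the WT oocytes and 0, 2, 0 and 2 in the KO oocytes, too few to check single labels. All 12 oocyte markers passed the filter, among them Dppa3 at 6012 to 15236 FPKM. Of 12 granulosa and cumulus markers, Amh, Foxl2 and Inha had no read, and the summed level of 17.1 to 29.9 FPKM in WT and 8.48 to 33.3 in KO was mostly Cyp19a1. The 7 blood and immune markers with a row summed to at most 0.0553 FPKM in WT and 1.81 in KO, with Hba-a1, Hba-a2, Cd52 and Lyz2 at 0 and the highest value from Ptprc in KO oocyte 1.

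The H2A.Z genes show the widest differences among the compared genes of the set, and their sequences show how reads of one can be told from the other. The first 120 bases of each coding sequence follow, from GENCODE M21 transcripts on GRCm38 (H2afz on the plus strand of chromosome 3, H2afv on the minus strand of chromosome 11), with capitals where the genes differ.
H2afz: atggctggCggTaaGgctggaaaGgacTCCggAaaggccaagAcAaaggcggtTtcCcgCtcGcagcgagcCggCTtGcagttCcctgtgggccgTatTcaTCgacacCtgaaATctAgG
H2afv: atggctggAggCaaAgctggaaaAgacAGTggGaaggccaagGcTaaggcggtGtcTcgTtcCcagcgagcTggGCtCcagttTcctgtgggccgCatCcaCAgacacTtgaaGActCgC
The coding sequences are 387 bases each and identical at 79.1% of positions, with no identical run longer than 14 bases. No stretch of 50 bases of any H2afv transcript occurred in a transcript of another gene. Of the 50-base stretches of H2afz, 35.4% also occurred elsewhere, in Tmcc1, a long noncoding RNA gene and 4 processed pseudogenes. H1foo shared none.

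Promoters of 3 genes are shown because H2afz and H2afv lay on opposite sides between genotypes and H1foo is the oocyte gene of the set. They are RefSeq sequences on GRCm38.p6, from 250 bases before to 50 bases after the start site, on the strand of the gene. Capitals mark 2 motifs on either strand, the one named after its letters CCAAT and the GC box, whose letters are GGGCGG.
H2afz, chr3:137864237-137864536, plus strand: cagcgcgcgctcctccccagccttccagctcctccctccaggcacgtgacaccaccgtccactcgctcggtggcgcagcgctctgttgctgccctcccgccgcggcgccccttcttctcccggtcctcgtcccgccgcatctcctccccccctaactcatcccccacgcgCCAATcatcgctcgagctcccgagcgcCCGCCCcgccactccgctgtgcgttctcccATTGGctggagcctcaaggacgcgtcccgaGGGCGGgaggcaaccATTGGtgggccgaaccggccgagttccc
H2afv, chr11:6444394-6444693, minus strand: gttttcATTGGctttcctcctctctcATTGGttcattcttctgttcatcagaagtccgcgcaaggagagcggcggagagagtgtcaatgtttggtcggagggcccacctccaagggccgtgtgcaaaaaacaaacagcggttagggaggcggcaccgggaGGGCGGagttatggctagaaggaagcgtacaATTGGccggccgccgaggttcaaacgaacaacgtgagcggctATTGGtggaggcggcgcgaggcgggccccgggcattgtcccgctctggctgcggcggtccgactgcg
H1foo, chr6:115944681-115944980, plus strand: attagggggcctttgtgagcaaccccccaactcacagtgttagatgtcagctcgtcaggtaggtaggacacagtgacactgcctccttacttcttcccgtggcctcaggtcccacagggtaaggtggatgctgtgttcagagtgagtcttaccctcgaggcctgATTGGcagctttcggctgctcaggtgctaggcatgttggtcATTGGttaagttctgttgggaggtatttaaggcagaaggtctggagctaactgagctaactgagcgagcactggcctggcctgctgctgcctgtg
The H2afz window held 3 CCAAT and 2 GGGCGG matches, the H2afv window 4 and 1, and the H1foo window 2 and 0. Of the windows not shown, H2afj held 3 and 2, as H2afz did, H2afy 0 and 2, H2afy2 1 and 0, and H1fx 0 and 1. A link between these counts and the genotype difference was not tested. Of all 32544 distinct promoter sequences of this length, 37.4% held CCAAT and 35.9% GGGCGG. For the TATA box only the exact letters TATAAA were searched, and other forms of it were not. On both strands TATAAA was in none of the 3 windows, against 13.6% of all promoters. The motif of the oocyte factor NOBOX, searched as TAATTG on both strands and held by 8.01%, was in none either. The motifs did not overlap one another. G and C made up 71.3% of the H2afz window, 60.7% of the H2afv window and 54.7% of the H1foo window, against a median of 53.0% over all promoters. The windows held 34, 27 and 5 CG pairs in that order, against a median of 7. A promoter sequence was matched for 8 of the 9 genes, and H2afx was without an entry.

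Of the 8 genes, 5 were compared, and by ratio of means 1 (H2afz) exceeded 2-fold with KO above WT and 1 (H2afv) with KO below WT. Over all 7833 compared genes these shares were 18.3% and 6.84%. With 5 genes, 1 in each direction is no departure that a count can show. The share of all compared genes whose genotypes do not overlap was not counted. A lack of overlap reported below therefore describes the gene and does not show that it is unusual.

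H1foo (ENSMUSG00000042279, chromosome 6 of GRCm38, 115944938 to 115950236, plus strand) was the most abundant of the 8 genes by far. Its levels were 6895, 4988, 5273 and 5692 FPKM in WT oocytes 1, 2, 4 and 5, and 4169, 3943, 3940 and 3668 FPKM in KO oocytes 1, 3, 5 and 6. Every KO oocyte lay below every WT oocyte, and the KO oocytes lay close together while WT oocyte 1 stood above its group. Within a library H1foo ranked between 4 and 8 among all genes in WT and between 5 and 8 in KO, so its place near the top was shared by both genotypes. The means were 5712 ± 840 FPKM (WT) and 3930 ± 205 FPKM (KO; SD over 4 oocytes each), a 1.45-fold lower level in KO, and between 1.34-fold and 1.61-fold lower under other scalings. As a part of the reads in listed genes, themselves lower limits, it was 0.808% ± 0.111 in WT and 0.605% ± 0.0190 in KO. Summed over 4 oocytes, 1206618 reads (95% exact Poisson interval 1204466 to 1208773) and 818718 reads (816946 to 820493) fell in H1foo; such intervals cover counting error only, since PCR copies one molecule many times. Of the 12 oocyte markers, 1 (Oosp1) passed 2-fold downward in KO and 1 (Figla) upward. Their median difference was -0.59 on the log2(FPKM + 1) scale, where H1foo had -0.53 and all compared genes 0.10. The summed level of the 12 was 15474 to 20602 FPKM in WT and 8910 to 11292 in KO, and their part in the H1foo difference was not tested.

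The other linker histone genes with a row were far below H1foo in these libraries, made with a kit known to prime from poly(A), which would miss histone mRNA without a tail. The stem-loop of such mRNA was found in 4 of the 8 clustered and testis linker histone genes. H1fx (ENSMUSG00000044927, chromosome 6, 87980421 to 87981637, minus strand), which encodes the linker histone H1X, had no read in any WT oocyte and none in KO oocytes 1 and 3, with 5 reads in KO oocyte 5 and 1 in KO oocyte 6. A count of 0 allows up to 3 reads (one-sided 95% limit, where the intervals above are two-sided), or 0.0563 to 0.0743 FPKM in the WT libraries, so H1fx was not detectable at this depth in WT and at its limit in KO. H1foo made up at least 99.997% of the summed FPKM of H1foo and H1fx in every oocyte. Of the 8 clustered and testis linker histone genes, 3 had no read and Hist1h1a alone was compared. Hist1h1a, a replication-dependent somatic linker histone gene, had 15.98, 46.7, 29.1 and 15.6 FPKM in WT and 58.8, 39.3, 32.4 and 46.7 FPKM in KO. The groups overlapped, and the KO mean was 1.65-fold higher, or 2.19-fold without WT oocyte 2. Hist1h1e, named after its values were seen, did not pass the filter, with 0.372 FPKM in WT oocyte 1, 0 in the other WT oocytes, and 4.61, 3.805, 0.454 and 2.48 FPKM in KO. Against all of these, and without H1f0, H1foo held 99.1% to 99.7% of linker histone FPKM in WT and 98.4% to 99.2% in KO. The difference was -0.70 percentage points, beside SDs of 0.307 points in WT and 0.330 points in KO, and WT oocyte 2 lay within the KO range.

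**Figure D1:**
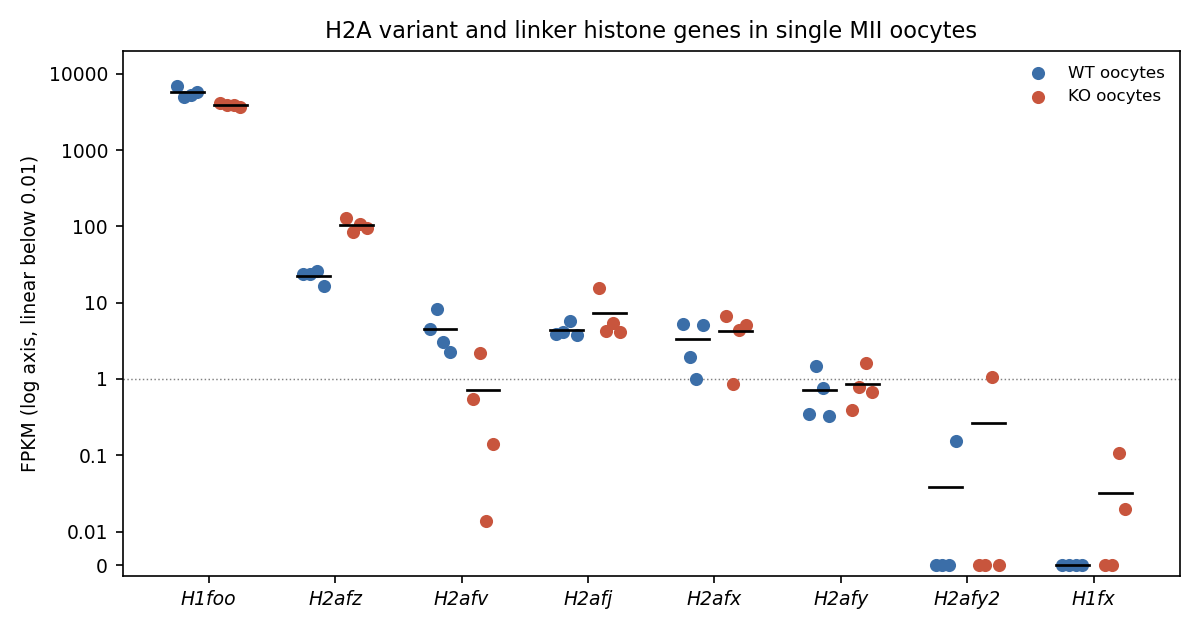
FPKM of the 8 genes in each oocyte, on an axis that is logarithmic above 0.01 and linear below; points are oocytes, bars are means of 4 oocytes, and the dotted line marks FPKM 1. H1foo is the most abundant in both genotypes and lower in all 4 KO oocytes, H2afz is higher in all 4 KO oocytes, H2afv is lower in them, and the genes from H2afj to H1fx overlap between genotypes.

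H2afz (ENSMUSG00000037894, chromosome 3, 137864487 to 137866922, plus strand), the main gene for H2A.Z and essential in the mouse embryo, was at 23.998, 24.023, 25.9 and 16.5 FPKM in the WT oocytes and at 126.8, 83.1, 108.7 and 95.1 FPKM in the KO oocytes. The lowest KO oocyte lay more than 3 times above the highest WT oocyte. Its rank within the library moved from between 1548 and 2033 in WT to between 370 and 584 in KO. On the log2(FPKM + 1) scale it differed by 2.15, and the ratio was 4.58-fold between means of 22.6 ± 4.19 and 103.4 ± 18.8 FPKM (SD, n = 4 oocytes each). It lay between 4.18-fold and 4.98-fold under the other scalings and was 5.82-fold over oocytes 1 and 5 of each genotype. The counts behind it were 7196 reads in WT (7031 to 7364) and 32010 in KO (31660 to 32363). Shared stretches could bring reads of Tmcc1 to H2afz or the reverse, as their treatment by the authors was a step not given in the sources used here. Tmcc1 had means of 1.52 (WT) and 2.37 FPKM (KO), and the pseudogene Gm13007 was listed at 0 in all 8 oocytes; the other copies were not analysed here.

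H2afv (ENSMUSG00000041126, chromosome 11, 6427229 to 6444443, minus strand), the second H2A.Z gene, lay the other way. It was at 4.50, 8.19, 3.04 and 2.23 FPKM in the WT oocytes, from 318, 608, 250 and 139 reads. In the KO oocytes it was at 0.550, 2.17, 0.0138 and 0.142 FPKM, from 39, 139, 1 and 11 reads. All KO oocytes were below all WT oocytes, but KO oocyte 3 at 2.17 FPKM lay next to WT oocyte 5 at 2.23. Means were 4.49 ± 2.64 and 0.720 ± 0.996 FPKM, 6.23-fold lower in KO and 19.1-fold lower without KO oocyte 3. The log2(FPKM + 1) difference of -1.71 was -3.19 with a pseudocount of 0.1 and -0.71 with a pseudocount of 5. H2afv reached FPKM 1 in 4 WT oocytes and 1 KO oocyte, and so passed the filter by its WT oocytes alone.

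The 2 H2A.Z genes can be set against each other within an oocyte, where library scaling cancels. H2afz made up 84.2%, 74.6%, 89.5% and 88.1% of the summed H2afz and H2afv FPKM in the WT oocytes and 99.6%, 97.5%, 99.99% and 99.9% in the KO oocytes. The groups did not overlap, and H2afz was the larger part in all 8 oocytes. The difference was 15.1 percentage points, beside SDs of 6.73 points in WT and 1.19 points in KO on a measure that cannot pass 100%. It lay between 11.9 and 16.9 points when any 1 oocyte was left out. The sum of both genes was 18.7 to 32.2 FPKM in WT and 85.3 to 127.3 FPKM in KO, and the ranges did not overlap.

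H2afj (ENSMUSG00000060032, chromosome 6, 136808244 to 136810074, plus strand) encodes H2A.J, a variant close to canonical H2A. It was at 3.89, 4.08, 5.78 and 3.81 FPKM in WT and at 15.8, 4.24, 5.38 and 4.09 FPKM in KO. Apart from KO oocyte 1, which held 1247 of the 2337 KO reads, the groups covered the same range. The ratio of means was 1.68 with that oocyte and 1.04 without it. A gene annotated as a microRNA on the opposite strand overlaps 7.70% of its exonic bases, and whether strand was used is a detail not given in the sources used here.

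H2afx (ENSMUSG00000049932, chromosome 9, 44334694 to 44336077, plus strand) varied more between oocytes of a genotype than between genotypes. Its levels were 5.19, 1.97, 0.998 and 5.04 FPKM in WT and 6.65, 0.869, 4.37 and 5.09 FPKM in KO, with both a low and a high oocyte in each group. Means of 3.299 ± 2.13 and 4.24 ± 2.44 FPKM differed by less than that spread. The log2(FPKM + 1) difference of 0.27 was -0.05 without WT oocyte 4 and 0.71 without KO oocyte 3. H2afx is the one gene of the 9 whose annotated transcript holds the stem-loop of replication-dependent histone mRNA, which takes the place of a poly(A) tail in such mRNAs. The stem-loop is shown for that reason, with its 16 bases in capitals and 5 bases on either side.
H2afx: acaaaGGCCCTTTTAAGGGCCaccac
It starts 47 bases after the stop codon. The search used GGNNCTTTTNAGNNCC on the transcript strand, after the stop codon only. It found a match in 0.279% of 21901 protein-coding genes and in 11 of 18 protein-coding clustered H2A genes. A transcript annotated without bases after the stop codon could give no match. H2AX mRNA is known in both a stem-loop form and a polyadenylated form, and the cDNA kit is known to prime from poly(A), so a form without a tail would be missed. The share of each form in these oocytes was not measured. Of the 50-base stretches of H2afx, 9.66% occurred in 43 other genes, among them Hist1h2al, which shared 1.35% and is described further on. Its means of 24.7 (WT) and 21.2 FPKM (KO) were above those of H2afx. These are shares of sequence, and the part of the H2afx reads that could belong elsewhere was not measured. On the opposite strand, a gene annotated as a microRNA overlaps 10.2% of its exonic bases.

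The macroH2A genes were low and did not pass the filter. H2afy (ENSMUSG00000015937, chromosome 13, 56073619 to 56136361, minus strand), for macroH2A1, was at 0.344, 1.47, 0.758 and 0.328 FPKM in WT and at 0.391, 0.783, 1.604 and 0.670 FPKM in KO. The ranges overlapped almost wholly, from 898 reads in WT and 1021 in KO. H2afy2 (ENSMUSG00000020086, chromosome 10, 61738665 to 61784147, minus strand), for macroH2A2, was listed at 0 in 6 oocytes, at 0.156 FPKM in WT oocyte 5 and at 1.07 FPKM in KO oocyte 5. Its reads could not be settled, since the 2 values above 0 leave the gene length open. In order of mean level, the WT oocytes held H1foo, H2afz, H2afv, H2afj, H2afx, H2afy, H2afy2 and H1fx, and neighbours from H2afv to H2afx did not differ beyond their spread. In KO, H2afj and H2afx came next after H2afz and H2afv stood below H2afy, and neither of these pairs differed beyond its spread.

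**Figure D2:**
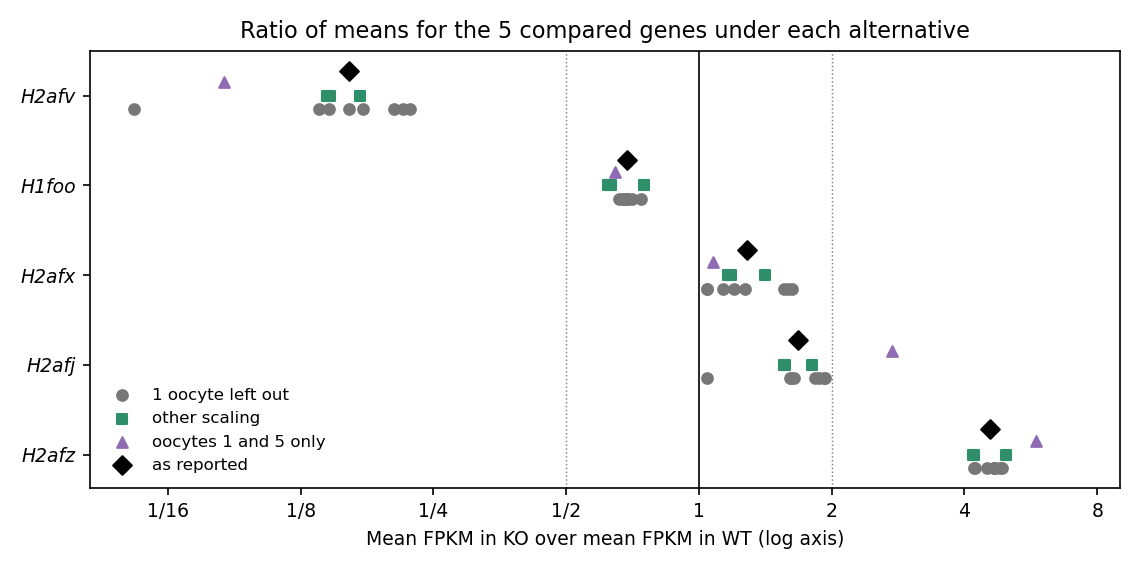
Mean FPKM in KO over mean FPKM in WT for the 5 compared genes, on a log axis, as reported, under 3 other scalings, with 1 oocyte left out and over oocytes 1 and 5 alone; dotted lines mark 2-fold. H2afz and H2afv stay past 2-fold under each of these settings, H1foo within it, and H2afj moves from 1.04 without KO oocyte 1 to 2.75 over oocytes 1 and 5.

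The H2A variants were then set beside the clustered H2A genes, taken by symbol. The products of most such genes fill nucleosomes made during DNA replication. The 2 that were compared, a testis and oocyte gene and an annotated pseudogene, are not taken as measures of that H2A. Of 18 clustered H2A genes with a row, 8 had no read and 2 were compared. Hist1h2aa, a testis and oocyte H2A gene, was at 155.5, 146.9, 200.5 and 172.1 FPKM in WT and at 26.8, 33.9, 19.7 and 17.2 FPKM in KO, 6.91-fold lower. Hist1h2al, annotated as a processed pseudogene in GENCODE M21, was at 6.37 to 47.8 FPKM over all oocytes, high in oocytes 1 and 2 of WT and 1 and 3 of KO, with means of 24.7 and 21.2 FPKM. Annotated genes on the opposite strand overlap 33.1% and 32.2% of the exonic bases of these genes. Shares were taken over 24 H2A genes with a row, the 18 clustered genes and the 6 variant genes named at the start. H2afz made up 9.80% ± 1.48 of the summed FPKM (WT) and 64.4% ± 10.4 (KO), SD over 4 oocytes. The ranges were 7.68% to 11.003% and 53.1% to 73.6%. The H2al and H2afb genes were left out of the 24. Among them H2afb1 had reads, up to 11.6 FPKM in KO oocyte 6, so with it the H2afz share would be lower there. Hist1h2aa made up 73.4% ± 8.96 in WT and 15.1% ± 4.401 in KO. By FPKM the leading H2A gene was therefore Hist1h2aa in all 4 WT oocytes and H2afz in all 4 KO oocytes. No stem-loop was found in H2afz, and one was found in 11 of the 18 protein-coding clustered H2A genes. None was found in Hist1h2aa either, but its annotated exons span 390 bases, against 387 for the coding sequence of H2afz alone. The search covered only bases after the stop codon, so it cannot decide for Hist1h2aa. With cDNA primed from poly(A), these shares and this order cover polyadenylated RNA only. The summed level of the 24 genes was 214.3 to 245.0 FPKM in WT and 129.1 to 218.3 in KO. Of this the 6 variant genes named at the start, without Hist1h2aa, held 28.03 to 39.7 and 91.2 to 150.2 FPKM. Hist1h2aa is a short gene, and counted in reads H2afz made up 24.1% to 30.8% of the reads of the 24 genes in WT and 76.9% to 85.5% in KO. This share depends on both genes and was chosen after the values had been seen.

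**Figure D3:**
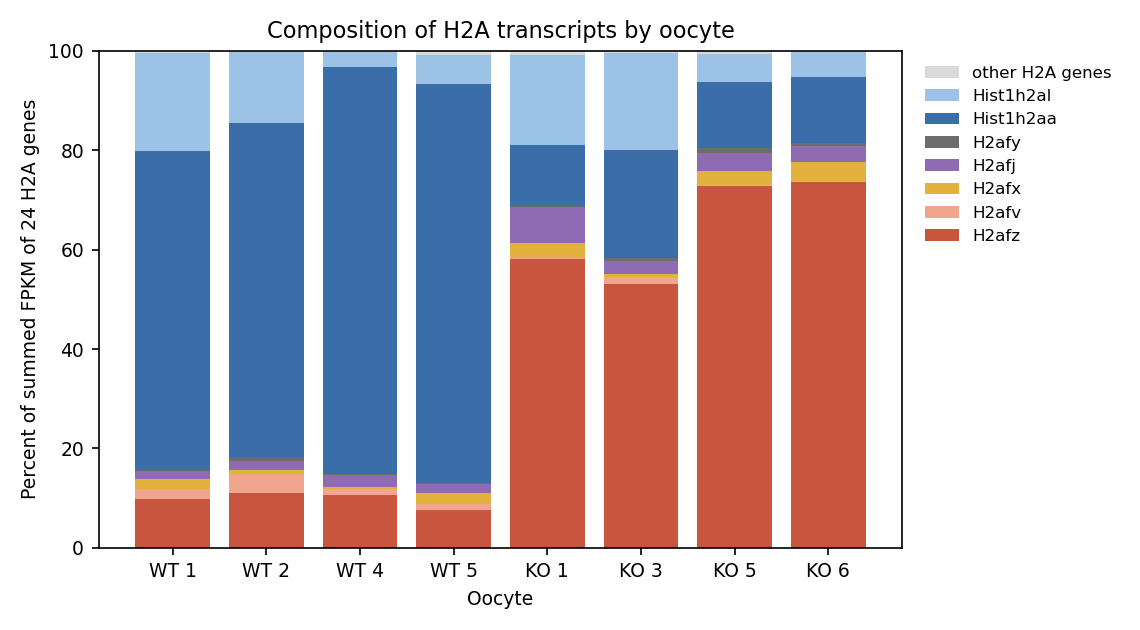
Percent of the summed FPKM of 24 H2A genes held by each gene, 1 bar per oocyte. The H2al and H2afb genes are not among the 24. Hist1h2aa fills most of each WT bar and H2afz most of each KO bar, while H2afv, H2afx, H2afj and H2afy are minor parts in all 8.

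The complexes that place H2A.Z in chromatin had a median near that of all compared genes. Of 22 genes of the SRCAP and TIP60-p400 complexes, 18 were compared, of which 1 passed 2-fold upward in KO and 1 downward. Over all compared genes 18.3% passed upward and 6.84% downward, shares to set beside the counts of the lists below too. The median log2(FPKM + 1) difference of this list was 0.09 against 0.10 over all compared genes. The sign of the medians of this list and of the lists for H2A.Z removal and H2A.X varied with scaling and with the oocytes kept, for example -0.07 for this list without WT oocyte 5, so no direction is given for them. Brd8, a bromodomain subunit of TIP60-p400, was at 1.86, 3.67, 2.58 and 2.94 FPKM in WT and 8.96, 19.2, 13.6 and 12.8 in KO, 4.94-fold higher with no overlap. Vps72, which binds H2A.Z in the SRCAP complex, was 2.17-fold lower, but WT oocyte 1 held 75.02 FPKM against 6.85 to 15.7 in the other WT oocytes, and without it the KO mean was 1.06-fold higher. Actl6a, an actin-related subunit, was 1.94-fold lower, rising to 2.28-fold when KO oocyte 1 is left out, and Morf4l1, a chromodomain subunit, 1.64-fold higher, each without overlap. Znhit1 averaged 2.38 and 2.59 FPKM, and Srcap, the remodelling ATPase itself, reached at most 0.332 FPKM in any oocyte.

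Of 17 genes for the removal or exchange of H2A.Z, 15 were compared, 1 passed 2-fold upward and 0 downward, and the median was 0.01. Anp32e, the chaperone that takes H2A.Z off nucleosomes, had means of 5.71 ± 1.202 (WT) and 3.97 ± 0.621 FPKM (KO), 1.44-fold lower with overlap. Ino80, the ATPase of the remodeller of that name, averaged 4.75 and 5.12 FPKM. Its subunit Ino80c was 4.78-fold higher, or 8.54-fold without WT oocyte 1, with 2.06, 1.46, 0 and 0.0279 FPKM in WT and 1.04, 7.40, 5.86 and 2.64 in KO, which overlap. Uchl5 was 1.79-fold and Ino80d 1.53-fold higher, both with overlap.

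Of 25 genes that phosphorylate H2A.X or read that mark, 19 were compared, 2 passed 2-fold upward and 0 downward, and the median was -0.01. Eya4, of a family of phosphatases that act on H2A.X, was 2.79-fold higher and Nbn, of the MRN break sensor, 2.15-fold, or 1.89-fold without WT oocyte 5, both without overlap. Ppp4c, a phosphatase catalytic subunit, was 1.70-fold lower, and WT oocyte 1 at 63.1 FPKM carried that difference, which was 1.06-fold without it. Ppp2ca was 1.49-fold higher with overlap. The kinase gene Atm and the adaptor gene Mdc1 did not pass the filter, with means of 0.489 and 1.22 FPKM for Atm and 0.635 and 0.742 for Mdc1.

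Among chaperones known to bind linker histones or to act as nucleoplasmins, 6 were compared. Against 18.3% and 6.84% of all compared genes, 3 of the 6 passed 2-fold upward in KO and 0 downward, and the median was 0.82. This list was drawn up with those values known and gives no independent evidence of a direction. Set, at 11.3 to 23.9 FPKM in WT and 69.4 to 92.0 in KO, Nasp, at 21.8 to 38.0 and 75.5 to 127.5, and Npm1, at 792.4 to 1338 and 2436 to 2728, did not overlap between genotypes. How many of all compared genes lack overlap was not counted. Tspyl1 was 1.70-fold lower without overlap. Of the H3.3 genes and partners of HIRA, 0 of 6 compared reached 2-fold in either direction, with a median of 0.27. H3f3a was 1.48-fold, Asf1a 1.44-fold and Ubn1 1.34-fold higher and Cabin1 1.31-fold lower.

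**Figure D4:**
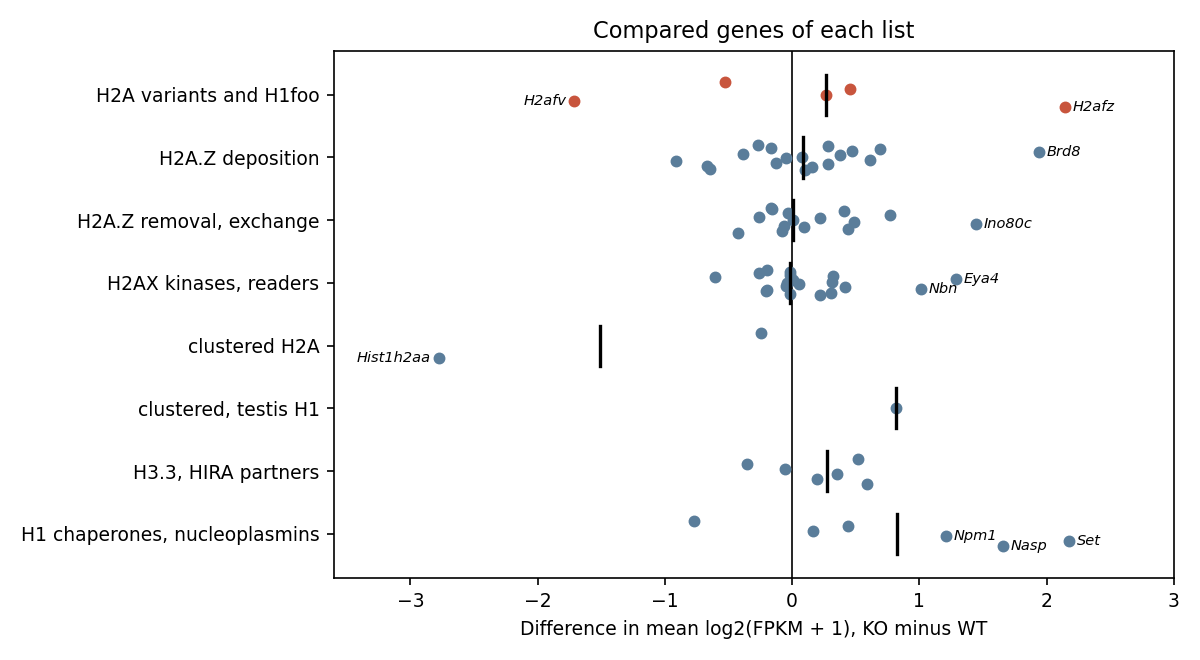
Difference in mean log2(FPKM + 1), KO minus WT, of each compared gene, by list; points are genes, bars are list medians, and genes beyond 1 from 0 are named. H2afz and H2afv lie on opposite sides, while the H2A.Z and H2AX lists centre near 0.

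Profiles over the 8 oocytes were compared by the root-mean-square distance between log2(FPKM + 1) values centred on each gene's mean, over 7832 other compared genes. Nearest to H1foo were Fryl, at a distance of 0.11, Anapc16, at 0.11, and Scpep1, at 0.11, where the median distance was 0.57. Nearest to H2afz were Cldn9, at 0.22, Serpinb3a, at 0.25, and ENSMUSG00000060214, which has no symbol in the name table, at 0.26, where the median was 1.13. Serpinb3a averaged 22.7 (WT) and 89.9 FPKM (KO). Cldn9 was listed at 0 in WT and averaged 3.07 FPKM in KO, so it passed the filter by its KO oocytes alone. Its distance depends on the pseudocount of 1, and no other pseudocount was tried for these distances.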

How the data were processed

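Single MII oocytes were taken straight to cDNA with a SMARTer kit, with ERCC spike-in RNA added, per the labels' protocols. The authors deposited 1 table of FPKM, 1 column per oocyte. Build mm9 and the tools TopHat2 2.0.2, HTSeq, Bowtie 0.12.8, edgeR 3.1.10 and Bowtie2 come from the submitters' processing notes, which give no order. Annotation release, gene lengths and strand use were details not given in the sources used here. ERCC spike-in values were not analysed here.

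Symbols matched 32897 of 37620 identifiers. Coordinates and exon overlaps came from GENCODE M21 on GRCm38 and were not carried to mm9. Whole reads, within 0.0001, were recovered from the FPKM of 99.99% of genes with any read, using the value of 1 read and the exon length. Where several lengths gave whole reads the smallest was taken, so totals over genes are lower limits.

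Each genotype was counted as 1 sample, so no test was made. Differences are means of log2(FPKM + 1), KO minus WT, which understate low genes; folds are ratios of mean FPKM and are called at 2-fold. Named genes are the 9 histone genes, up to 4 compared genes per list by size of the fold, 7 set by name (Srcap, Znhit1, Vps72, Anp32e, Ino80, Atm and Mdc1), the nearest 3 profiles of H1foo and H2afz, and up to 3 markers per list by mean FPKM. Markers at 0, Figla, Hist1h1e, H2afb1 and the H2afz sequence partners Tmcc1 and Gm13007 were named outside this rule, after their values were seen. The shares of H2afz among all H2A genes and of H1foo among all linker genes were added after seeing the data. Members and lists were chosen with earlier results of these data known. Alternatives covered scaling, pseudocount, filter, threshold, left-out oocytes and a replicate block. The scripts, in Python 3.11.15 with scipy 1.17.1, were tested on simulated data.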

Additional observations from a re-analysis of the deposited data

Results flagged for a closer look

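An oocyte stood apart from the other 3 of its genotype, by Dixon's criterion at the 95% level, in 5 of 24 groups. For values that vary freely, chance gives about 1 in 20. H1fx and the H1foo share of H1foo and H1fx did not vary over the WT oocytes, so those groups could not be marked. H2afj was at 15.8 FPKM in KO oocyte 1, where the next oocyte had 5.38, and at 5.78 FPKM in WT oocyte 4, where the next had 4.08. H2afy2 was at 1.07 FPKM in KO oocyte 5 and at 0.156 FPKM in WT oocyte 5, with 0 in the other 3 oocytes of each genotype, so any value above 0 would be marked there. The H2afz share of H2A.Z FPKM was 97.5% in KO oocyte 3, below the 99.6% of the next oocyte, on a measure that cannot pass 100%. The count of 5 is therefore not to be read against chance. H2afj and H2afy2 were each marked in both genotypes.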

How the results depend on the processing

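Over all compared genes the median log2(FPKM + 1) difference of 0.10 was 0.20 when scaled to reads in listed genes, -0.02 with median-of-ratios and -0.0028 with upper-quartile scaling. H2afz, H2afv and H1foo kept their direction in all 14 alternatives run for each. Their genotypes did not overlap, so left-out oocytes, the replicate block and the pseudocounts could not have reversed it. Only the scalings could have done so. The count of genes at least 2-fold higher was 2 instead of 1 at a 1.5-fold threshold and 3 with no filter, which adds H2afy2 and H1fx, and the count at least 2-fold lower was 0 where a mean FPKM of at least 5 was asked, which removes H2afv. List medians moved as follows. With no filter the median was -0.035 for the clustered H2A genes (-1.51 with it, over 2 genes only), 0.44 for the linker chaperones and 0.19 for the H3.3 and HIRA genes, since more low genes enter. For the linker chaperones it was 0.94 scaled to reads in listed genes, 0.68 with median-of-ratios and 0.69 with upper-quartile scaling, and for the H3.3 and HIRA genes 0.38, 0.14 and 0.16 in that order, 0.19 with a pseudocount of 5 and 0.36 at a mean FPKM of at least 5. Leaving out 1 oocyte gave -0.075 to 0.13 for the SRCAP and TIP60 list, the lowest without WT oocyte 5. With a replicate block, the mean difference over the oocytes numbered 1 and 5, the count at least 2-fold higher was 2, with H2afj the addition. The medians were then 0.25 for H2A.Z removal, 0.21 for the H2AX list and 0.42 for the H3.3 and HIRA genes. For the linker histone list the value was 1.42, which is that of Hist1h1a, its 1 compared gene. The numbers are not stated to mark a shared female or day. Where no cause is named, the cause was not tested. Over 1 kb of exon, 3 reads are worth 0.0598 to 0.0789 FPKM, which limits statements on H1fx and H2afy2.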

Other observations

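H2A variant genes outside those described above were examined after their values had been seen. Of 8 H2al and H2afb genes with a row, which encode short H2A variants known from the testis, 1 had any read. H2afb1 was at 0 FPKM in WT oocytes 1, 2 and 4, at 3.40 FPKM in WT oocyte 5, and at 2.19, 5.30, 2.47 and 11.6 FPKM in KO oocytes 1, 3, 5 and 6. The reads numbered 45 in WT and 334 in KO, and the genotypes overlapped.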
